A study of Homo sapiens with 8 samples.

Results

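P300 regions inside gene bodies are the 8050 listed P300 regions that overlapped the span of a protein-coding gene and lay more than 3000 bp from every protein-coding gene end, out of 20496 listed P300 regions (39.3%, 95% exact binomial interval 38.6 to 39.9%). Gene spans were those of RefSeq on GRCh38.p14, which were used here without exons, so exonic and intronic regions could not be told apart. All 8050 regions lay wholly inside a span, 126 of them (1.57%) inside more than 1 gene, and together they touched 3720 of 20037 protein-coding genes (18.6%). Of the other listed P300 regions, 11341 lay between genes and 1105 within 3000 bp of a gene end.

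P300, the protein of EP300, is a lysine acetyltransferase and transcriptional coactivator. It has no DNA-binding motif of its own and is brought to chromatin by transcription factors, where it acetylates histones, including H3 at lysine 27. Away from promoters its sites are used as a mark of enhancers, many of which lie in the introns of the gene they act on or of a neighbour.

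The compared arms were NCI-H69 cells, a human line long established from small cell lung cancer, transfected with siRNA against CSNK2B and NCI-H69 cells transfected with non-targeting siRNA, both harvested after 48 h. CSNK2B encodes the regulatory subunit of casein kinase 2. Chromatin was fixed with 1% formaldehyde for 10 min, precipitated with an antibody to P300 or to the histone-binding protein RBBP4, and read as 150 bp pairs. There were 8 libraries in the series, 1 ChIP and 1 input library for each antibody and arm, and the inputs were not used here. Each arm was thus 1 library of 1 line, so no difference below has a replicate check and none is tested. Arms were read from the column names of the P300 table, and the extent of the CSNK2B knockdown is not measured by these data. In chromatin from a whole culture, fewer cells with a bound site and less binding per cell cannot be told apart.

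Of the regions, 25 overlapped a 300 bp window around a gene start in the RefSeq table used here, from 250 bp before it to 50 bp after it. These start windows are shown because they tie a region to a named transcript that begins inside a longer gene. The 25 regions touched 27 such windows, 16 of protein-coding genes and 11 of long non-coding RNAs, and 15 of the windows belonged to the gene that held the region. In 6 of the 7 cases with at least 150 bases of the window inside the region, the RefSeq sequence is given here 5′ to 3′ on the transcript's strand, with capitals for bases inside the P300 region and lower case for bases outside it. The first 3 regions had more P300 reads after CSNK2B siRNA and the other 3 had more reads after non-targeting siRNA.
C4orf36 start window, chr4:86892373-86892672, minus strand, GRCh38.p14: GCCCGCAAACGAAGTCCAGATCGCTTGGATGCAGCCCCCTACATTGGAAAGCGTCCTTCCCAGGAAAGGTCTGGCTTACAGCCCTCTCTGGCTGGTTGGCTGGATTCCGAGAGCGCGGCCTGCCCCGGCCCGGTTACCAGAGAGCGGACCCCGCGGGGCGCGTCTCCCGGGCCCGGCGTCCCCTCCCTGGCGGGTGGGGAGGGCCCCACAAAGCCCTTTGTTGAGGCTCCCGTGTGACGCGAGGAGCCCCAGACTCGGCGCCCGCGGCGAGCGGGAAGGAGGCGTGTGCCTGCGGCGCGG
TASOR2 start window, chr10:5692548-5692847, plus strand, GRCh38.p14: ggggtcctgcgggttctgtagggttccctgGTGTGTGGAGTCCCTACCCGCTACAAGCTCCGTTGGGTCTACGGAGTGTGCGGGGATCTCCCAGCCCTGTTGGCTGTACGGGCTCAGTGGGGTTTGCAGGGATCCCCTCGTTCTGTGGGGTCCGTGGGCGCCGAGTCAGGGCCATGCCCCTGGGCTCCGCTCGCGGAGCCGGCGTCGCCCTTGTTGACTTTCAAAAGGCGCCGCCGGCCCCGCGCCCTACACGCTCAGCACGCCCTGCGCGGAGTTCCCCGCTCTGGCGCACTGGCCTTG
SEMA4A start window, chr1:156153335-156153634, plus strand, GRCh38.p14: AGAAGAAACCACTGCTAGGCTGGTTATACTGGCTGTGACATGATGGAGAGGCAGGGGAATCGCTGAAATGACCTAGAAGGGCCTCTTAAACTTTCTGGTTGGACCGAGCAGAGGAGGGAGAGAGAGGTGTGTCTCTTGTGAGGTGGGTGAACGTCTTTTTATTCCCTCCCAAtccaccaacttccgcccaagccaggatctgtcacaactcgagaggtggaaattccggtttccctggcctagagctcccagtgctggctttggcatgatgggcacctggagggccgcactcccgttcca
PRKG1 start window, chr10:52046506-52046805, plus strand, GRCh38.p14: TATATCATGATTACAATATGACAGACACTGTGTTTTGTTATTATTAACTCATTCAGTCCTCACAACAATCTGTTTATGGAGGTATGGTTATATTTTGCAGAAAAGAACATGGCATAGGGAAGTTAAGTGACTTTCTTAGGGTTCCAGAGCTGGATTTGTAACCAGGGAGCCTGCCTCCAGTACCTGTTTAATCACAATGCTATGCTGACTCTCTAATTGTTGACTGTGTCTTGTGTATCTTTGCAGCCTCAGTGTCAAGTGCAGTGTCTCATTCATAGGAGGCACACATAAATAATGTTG
VGLL4 start window, inside ATG7, chr3:11568749-11569048, minus strand, GRCh38.p14: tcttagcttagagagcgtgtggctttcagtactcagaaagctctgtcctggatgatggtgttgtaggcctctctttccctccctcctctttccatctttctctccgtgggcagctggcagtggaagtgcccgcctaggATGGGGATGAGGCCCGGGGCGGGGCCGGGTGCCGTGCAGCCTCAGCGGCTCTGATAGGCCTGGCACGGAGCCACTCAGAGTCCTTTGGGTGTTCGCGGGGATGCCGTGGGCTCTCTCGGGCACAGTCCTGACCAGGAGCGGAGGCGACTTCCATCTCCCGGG
DOCK4-AS1 start window, inside DOCK4, chr7:111808255-111808554, plus strand, GRCh38.p14: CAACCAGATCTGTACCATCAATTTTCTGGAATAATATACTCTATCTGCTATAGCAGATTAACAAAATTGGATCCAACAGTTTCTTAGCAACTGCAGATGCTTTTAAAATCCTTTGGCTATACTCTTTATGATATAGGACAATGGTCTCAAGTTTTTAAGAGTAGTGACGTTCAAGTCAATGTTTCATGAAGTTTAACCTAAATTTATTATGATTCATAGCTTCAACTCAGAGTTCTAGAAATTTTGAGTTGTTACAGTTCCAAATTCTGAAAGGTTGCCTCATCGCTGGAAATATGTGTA

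The C4orf36 window was rich in G and C (70.7% G+C, 31 CpG), and the region that covered it (chr4:86891938-86892699) held 27 reads after CSNK2B siRNA and 5 after non-targeting siRNA, a 6.24-fold ratio (95% interval 2.37 to 20.7). Intervals here are exact, cover counting error only, and treat reads as independent molecules. In the authors' deposited table, which was scaled otherwise, the same region had a log2 fold change of 2.17, a p of 0.00189 and an adjusted p of 0.260. TASOR2, which encodes a relative of a subunit of the HUSH silencing complex, had a similar window (68.7% G+C, 27 CpG), with 13 reads in its region after CSNK2B siRNA and 2 after non-targeting siRNA. SEMA4A, a membrane-bound semaphorin, had 9 reads after CSNK2B siRNA and none after non-targeting siRNA. Its window had 54.7% G+C and 8 CpG. Among the windows on the control side, PRKG1, the gene of a cyclic GMP-dependent kinase, had no CpG in a window of 39.0% G+C, with 8 reads after CSNK2B siRNA and 18 after non-targeting siRNA. The VGLL4 region, at a start of this TEAD cofactor gene inside the autophagy gene ATG7, had a window of 62.7% G+C and 16 CpG and held 15 reads after CSNK2B siRNA and 28 after non-targeting siRNA. At DOCK4-AS1, with 33.3% G+C, the counts were 5 after CSNK2B siRNA and 15 after non-targeting siRNA. Its window held 1 match to TGANTCA, a loose form of the AP-1 motif that allows any middle base. The match was TGATTCA, so it is a match to the loose form only. The seventh case, LNX1-AS2 inside LNX1, had 56.7% G+C and 8 CpG, with 2 reads after CSNK2B siRNA and 10 after non-targeting siRNA. CpG counts thus ran from 8 to 31 on the knockdown side and from 0 to 16 on the control side, too few windows for a comparison.

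The 25 regions at inner starts held more reads than the rest. Their median was 15 reads over both libraries against 12 for the other 8025 regions, and 7 of 25 (28.0%, interval 12.1 to 49.4%) reached 20 reads against 536 of 8025 (6.68%, interval 6.14 to 7.25%). Their directions were mixed, 10 higher after CSNK2B siRNA and 15 lower. On either strand, TGANTCA was found in 7 of the 27 windows (25.9%) and in 7.71% of 35116 RefSeq start windows. Most of the 27 windows lay only partly in a region, and of the 7 with at least 150 bases inside one, 1 held it (14.3%). The E-box CANNTG was found in 70.4% of these windows against 68.7% of all, and the ETS motif CCGGAA or TTCCGG in 18.5% against 17.2%. Median G+C was 55% against 58.7%, with a median of 6 CpG against 14. A match is a run of letters and not a binding site.

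1 region held a whole microRNA gene. The hairpin of miR-1288 (chr17:16282014-16282088, plus strand, GRCh38.p14) lay inside a region in PIGL, an enzyme gene of glycosylphosphatidylinositol anchor synthesis, which had 15 reads after CSNK2B siRNA and 3 after non-targeting siRNA. The mature sequences from RefSeq are shown because they name the product of that locus, with the seed, bases 2 to 8, in capitals.
hsa-miR-1288-5p: gCAGAUCAggacuguaacucacc
hsa-miR-1288-3p: uGGACUGCccugaucuggaga

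Of the 8050 regions, 2764 were higher after CSNK2B siRNA and 5286 were lower, by the sign of the fold change in the authors' deposited table. The share higher was 34.3% (33.3 to 35.4%), and over all listed P300 regions 34.7% were higher and 65.3% lower. There, 0% of listed regions had an adjusted p below 0.05, and the lowest adjusted p among these regions was 0.260, with unadjusted p from 1.54e-05 to 0.0493. The median log2 ratio of knockdown over control RPKM, with 1 added to each, was -1.70 in gene bodies and -1.70 over all listed regions. At 2-fold or more on that scale, 2764 gene body regions were higher and 5223 lower, where the whole list had 34.7% and 64.3%. At 4-fold or more on that scale 2721 regions were higher (33.8%) and 2725 lower (33.9%), and the whole list had 34% and 34.4%. These near-equal counts depend on the scale and on the 1 added. The log2 ratio of RPKM lay 0.41 above the authors' log2 fold change at the median of 2044 regions with at least 3 reads in both libraries. Counts at 4-fold on the authors' scale were not made.

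These ratios rest on few reads. Regions that were higher had a median of 11 reads after CSNK2B siRNA and 1 after non-targeting siRNA, with ranges of 7 to 29 and 0 to 9. Regions that were lower had a median of 2 reads after CSNK2B siRNA and 10 after non-targeting siRNA, with ranges of 0 to 15 and 6 to 28. The median RPKM, reads per unit of region length and of scaled library, was 53.1 after CSNK2B siRNA and 5.11 after non-targeting siRNA in the higher regions. In the lower regions it was 7.14 after CSNK2B siRNA and 34.7 after non-targeting siRNA. The weaker library had no read at all in many regions: 772 (9.59%) had 0 reads after CSNK2B siRNA and 393 (4.88%) had 0 reads after non-targeting siRNA. Only 543 regions (6.75%) reached 20 reads over both libraries, 180 of them higher and 363 lower. The 8050 regions showed just 163 different pairs of read numbers. The commonest, 2 reads after CSNK2B siRNA and 9 after non-targeting siRNA, occurred at 777 regions, 14.7% of those lower. Next among the lower ones was 1 against 8, at 608 regions. Among higher regions 9 reads after CSNK2B siRNA and 1 after non-targeting siRNA was commonest, at 391 regions (14.1%). The names of the regions carry the arm in which the peak was called, and for all 8050 that arm was the higher one.

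**Figure D1:**
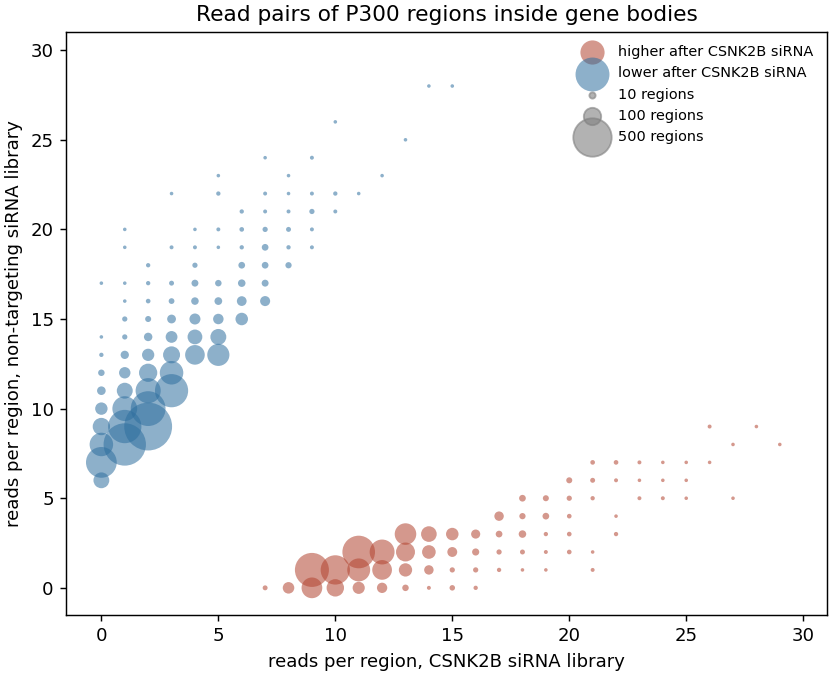
P300 reads of the 8050 regions inside gene bodies, with reads after CSNK2B siRNA on the horizontal axis, reads after non-targeting siRNA on the vertical axis, and the area of each circle for the number of regions with that pair of reads. Red circles are regions higher after CSNK2B siRNA and blue circles regions lower after it, and the space between them is empty.

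The plot of read pairs shows no region with near-equal reads, and only regions below p 0.05 in the authors' table were listed. They therefore describe where large ratios fell, not the whole set of P300 sites in gene bodies.

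Gene bodies were close to the space between genes in direction and in density. The share of regions higher after CSNK2B siRNA was 34.3% in gene bodies, 34.7% between genes (33.8 to 35.6%) and 38.2% at gene ends (35.3 to 41.1%). Per megabase of gene interior more than 3000 bp from an end there were 7.01 regions (6.86 to 7.16), and between genes 6.52 (6.4 to 6.64), where the length between genes includes unassembled sequence. At the edge of the rule, 55 of the 154 regions in the 1000 bp just inside the 3000 bp limit were higher (35.7%), and 82 of the 190 regions in the 1000 bp just outside it (43.2%, 36 to 50.5%).

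Longer genes held more regions per length. Genes under 50 kb had 4.69 regions per megabase of interior (4.35 to 5.06), and the classes 50 to 100, 100 to 200, 200 to 500 and 500 to 1000 kb had 6.16, 6.93, 7.70 and 7.94. Genes over 1000 kb had 8.46 (7.88 to 9.07), 1.80 times the value of the shortest class (1.63 to 2.0). All 69 genes over 1000 kb held a region, as did 94.7% of the 246 genes of 500 to 1000 kb, against 640 of 13768 genes (4.65%) under 50 kb. The order held for regions lower after CSNK2B siRNA, which numbered 3.01 per megabase in the shortest class and 5.88 in the longest. Regions higher after CSNK2B siRNA numbered 1.68 in the shortest class, 2.80 at 500 to 1000 kb and 2.58 in the longest. The share higher was between 33.6 and 35.8% in the first 5 classes and 30.5% (27.3 to 33.8%) in the longest.

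The length trend was also present within chromosomes. On 18 of the 22 chromosomes with genes over 500 kb, those genes had more regions per megabase than genes under 100 kb, and chromosomes 6, 18, 21 and 22 were the exceptions. Over all chromosomes the values were 8.16 and 5.51 per megabase. RBBP4 regions picked by the same rule, 12342 of 35154, followed this order in part. Those higher after CSNK2B siRNA numbered 6.54 per megabase in genes under 50 kb, 8.35 at 200 to 500 kb and 5.50 over 1000 kb. RBBP4 regions lower after CSNK2B siRNA numbered 2.89 under 50 kb, 3.99 at 500 to 1000 kb and 3.56 over 1000 kb. Mapping, G+C content and accessibility along these genes were not measured here.

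**Figure D2:**
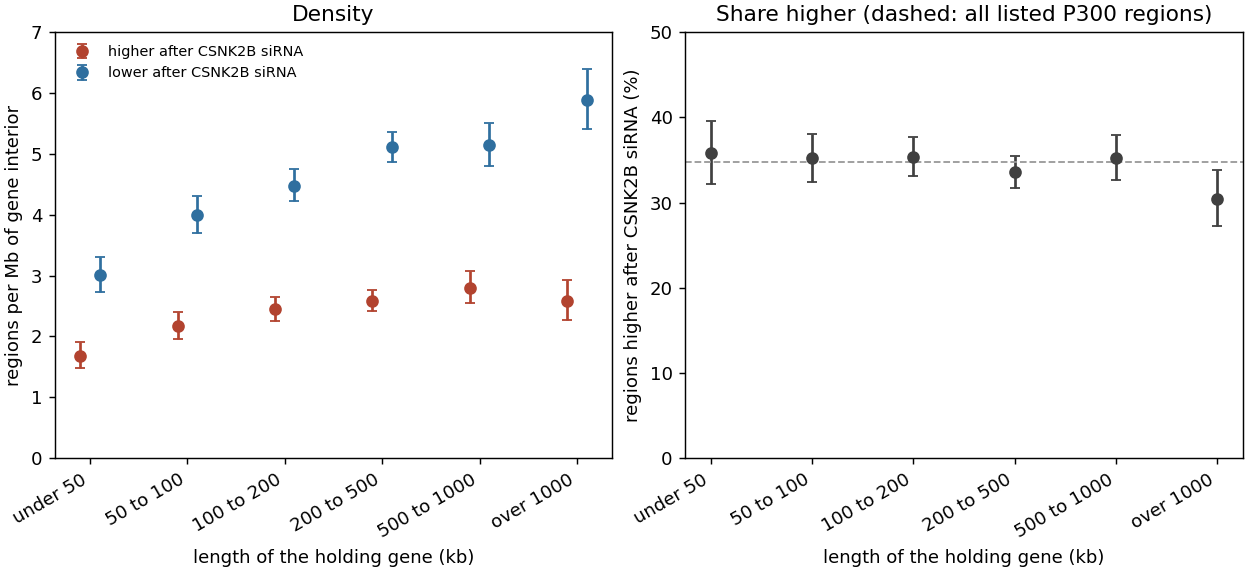
P300 regions inside gene bodies by the length of the gene, as regions per megabase of interior for each direction (left) and as the share of regions higher after CSNK2B siRNA (right), with exact 95% intervals for counting error and the share over all listed P300 regions dashed. Lower regions numbered 3.01 per megabase in genes under 50 kb and 5.88 in genes over 1000 kb, and the share higher stayed between 30.5 and 35.8%.

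The genes with the most regions were long and of varied function. LRP1B, a large receptor of the LDL receptor family, had 33 regions over its 1900 kb. Of these, 10 were higher after CSNK2B siRNA, with 9 to 20 reads after CSNK2B siRNA and 0 to 5 after non-targeting siRNA. The other 23 had 0 to 7 reads after CSNK2B siRNA and 7 to 19 after non-targeting siRNA. Higher ones lay 101 to 857 kb from the nearest gene end and lower ones 29.5 to 940 kb, so both kinds shared the same stretches. In sum LRP1B had 190 reads after CSNK2B siRNA and 271 after non-targeting siRNA. MACROD2, an ADP-ribosylhydrolase gene, had 30 regions, 7 higher and 23 lower, with 169 reads after CSNK2B siRNA and 310 after non-targeting siRNA. CSMD1, a complement-regulating membrane protein gene, had 29, with 11 higher and 18 lower. DLG2, a postsynaptic scaffold gene, had 26 with 8 higher and 18 lower, and the receptor phosphatase gene PTPRD had 24 with 8 higher and 16 lower. RBFOX1, a splicing regulator and the longest gene at 2474 kb, had 20 regions, 7 higher and 13 lower, or 8.09 per megabase.

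NELL1 and RORA had nearly even numbers of higher and lower regions. NELL1, which encodes a secreted protein with EGF-like repeats, had 22 regions in 906 kb, or 24.3 per megabase, with 12 higher and 10 lower. Its 12 higher regions had 8 to 15 reads after CSNK2B siRNA and 0 to 3 after non-targeting siRNA, and its 10 lower regions had 0 to 2 and 7 to 12 in the same arms. In sum NELL1 held 150 reads after CSNK2B siRNA and 110 after non-targeting siRNA. RORA, a nuclear receptor gene, had 16 regions, 7 higher and 9 lower, and sums of 136 after CSNK2B siRNA and 131 after non-targeting siRNA. Sums over regions move with how many regions were listed in each direction.

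**Figure D3:**
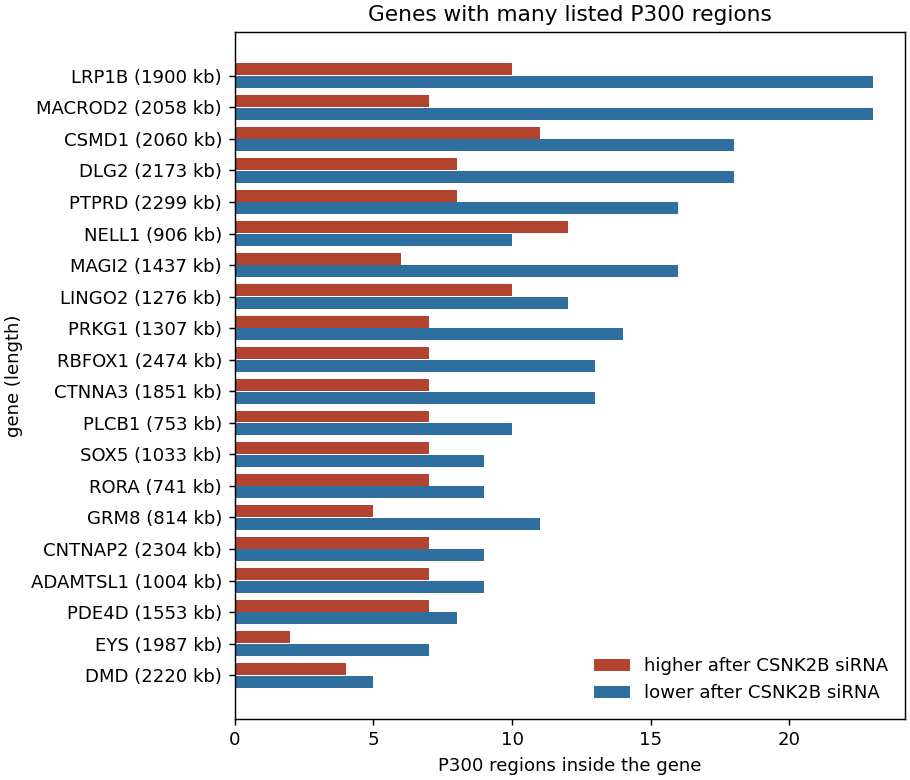
Number of P300 regions in the genes with the most regions and in the longest genes, with regions higher after CSNK2B siRNA drawn apart from regions lower after it. GRM8, PLCB1, SOX5, RORA, ADAMTSL1 and PDE4D were added by choice. Some genes with as many regions, such as ROBO2 with 19, are not drawn. LRP1B had 10 higher and 23 lower, and NELL1 had 12 and 10.

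Genes with many regions almost always held both directions. With 34.3% of all 8050 regions higher, a gene with more regions can hold both directions more easily. The number of such genes to be expected from this was not computed. Among the 1572 genes with more than 1 region, 979 had both, 116 had only higher and 477 only lower ones. Among 352 genes with at least 5 regions, 328 had both, 2 only higher and 22 only lower, and these 352 genes had a median length of 529 kb. All 68 genes with at least 10 regions, with 1022 regions in all, had both. Genes chosen after their values were seen, for having only lower regions, were led by SMYD3, a lysine methyltransferase gene, and SPAG16, a gene of the ciliary axoneme. Each had 9 regions, with sums of 26 reads after CSNK2B siRNA and 104 after non-targeting siRNA at SMYD3, and 24 and 102 in the same arms at SPAG16. The scaffold gene DLG1 had 7 lower regions in 257 kb, with 11 reads after CSNK2B siRNA and 64 after non-targeting siRNA. Neighbouring regions of one gene shared their direction about as often when close as when far apart. Within 10 kb, 360 of 649 neighbours had the same direction (55.5%), and farther apart 2031 of 3681 did (55.2%). Because lower regions outnumber higher ones, neighbours with unrelated directions would also agree more often than differ. The agreement that the shares higher and lower alone would give was not computed.

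The largest differences by the authors' fold change, among regions at or above the median level, were regions with no read in one library. RAPGEF4, an exchange factor gene of cyclic AMP signalling, had a region (chr2:172776175-172776504) with 16 reads after CSNK2B siRNA and none after non-targeting siRNA, or 51.2 and 0 RPKM in these arms. Counting the empty library as 3 reads, the most that a count of 0 allows, it was at least 6.16-fold higher. The 16 reads are held fixed in that bound, and with their counting error included the exact lower limit was 4.45. NR2F1, an orphan nuclear receptor gene, had a region with the same reads, and this region lay 3.02 kb from the gene's end and so just inside the limit. EML4, a microtubule-binding protein gene, had 15 reads after CSNK2B siRNA and none after non-targeting siRNA (at least 5.77-fold higher, exact limit 4.14). PIK3CD, the gene of a phosphoinositide 3-kinase catalytic subunit, had 14 and 0 in the same arms (at least 5.39-fold higher, exact limit 3.83), and the potassium channel-interacting protein gene KCNIP1 had 13 and 0 (at least 5.00-fold higher, exact limit 3.52). On the lower side DNAH9, an axonemal dynein gene, had 0 reads after CSNK2B siRNA and 12 after non-targeting siRNA, at least 3.46-fold lower (exact limit 2.41). RELN, an extracellular guide of neuron migration, and RASA2, a Ras GTPase-activating protein gene, had 0 reads after CSNK2B siRNA and 10 after non-targeting siRNA, at least 2.89-fold lower (exact limit 1.94).

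Regions with the most reads had smaller ratios than the regions above, which were picked for their fold change. Only regions with p below 0.05 were listed, so a region with few reads was listed only at a large ratio. CNTNAP2, an axonal adhesion gene, had a region 1138 kb from its nearest end with 25 reads after CSNK2B siRNA and 7 after non-targeting siRNA, a 4.12-fold ratio. ANO6, a phospholipid scramblase gene, had 27 reads after CSNK2B siRNA and 8 after non-targeting siRNA (3.90-fold), and TLK1, a chromatin-assembly kinase gene, had 26 and 7 in the same arms (4.29-fold). Among lower regions the intervals often reached 1. This depends on the scale, since log2 ratios of RPKM lay 0.41 above the authors' at the median. Lower regions therefore come out with smaller folds here, and higher regions with larger ones. MPRIP, a myosin phosphatase-interacting protein gene, had 14 reads after CSNK2B siRNA and 28 after non-targeting siRNA, 1.73-fold lower (0.882 to 3.56). The ATG7 region shown above was 1.62-fold lower (0.835 to 3.26). The authors' log2 fold changes were -1.23 at the MPRIP region and -1.13 at the ATG7 region. LCLAT1, a lysocardiolipin acyltransferase gene, had 10 reads after CSNK2B siRNA and 26 after non-targeting siRNA, 2.25-fold lower (1.05 to 5.23). OR4M1, which had 9 reads after CSNK2B siRNA and 24 after non-targeting siRNA, belongs to a family of near-identical olfactory receptor genes, so the origin of its reads is uncertain. Named after their values were seen, the regions of smallest p included one in TENM2, a teneurin adhesion gene, with 21 reads after CSNK2B siRNA and 1 after non-targeting siRNA (24.2-fold higher, 3.90 to 1003). AGAP1, an ARF GTPase-activating protein gene, had 1 read after CSNK2B siRNA and 20 after non-targeting siRNA (17.3-fold lower, 2.77 to 718).

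The share higher ran from 10.7% in coactivator genes to 56.5% in skeletal muscle genes over the lists with a region, beside 34.7% over all listed P300 regions. Of 65 neuronal adhesion and synapse organiser genes 60 held a region, 472 in all, of which 147 were higher and 325 lower. That share higher was 31.1% (27.0 to 35.5%), with a median log2 ratio of -1.84 beside -1.70 over all listed regions. Of 62 ion channel and neurotransmitter receptor genes 49 held 212 regions, 74 higher and 138 lower. Second messenger and kinase signalling genes held 268 regions in 48 of 58 genes, 107 higher and 161 lower (39.9%, 34.0 to 46.1%). PDE4D, a cyclic AMP phosphodiesterase gene, had 7 higher and 8 lower regions, and PLCB1, a phospholipase C gene, had 7 higher and 10 lower. All 23 genes of common fragile sites held a region, 255 in all, and 27.5% of these (22.1 to 33.4%) were higher, although 5 of these genes are also on the synapse list. Transcription factor genes with long introns held 208 regions in 59 of 76 genes, 69 higher and 139 lower, among them SOX5 with 7 higher and 9 lower.

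Coactivator and acetyltransferase genes had few regions, 28 in 16 of 43 genes, and 25 of 28 were lower after CSNK2B siRNA (10.7% higher, 2.27 to 28.2%), where 34.7% of all listed P300 regions were higher and 65.3% lower. EP300 itself and its paralogue CREBBP had no region. NCOA2, a nuclear receptor coactivator gene, gave 6 of the lower ones, with 1, 1, 5, 1, 3 and 2 reads after CSNK2B siRNA and 11, 10, 13, 12, 13 and 12 at the same regions after non-targeting siRNA. No NCOA2 region had more reads after CSNK2B siRNA, and without NCOA2 the list had 3 higher of 22. KMT2C, an H3 lysine 4 methyltransferase gene, had 3 lower regions, with 5, 3 and 4 reads after CSNK2B siRNA and 15, 12 and 13 after non-targeting siRNA. The 3 higher regions of the list were in the acetyltransferase gene KAT2B, with 15 reads after CSNK2B siRNA and 3 after non-targeting siRNA, in KAT6A with 9 and 1, and in NCOA3 with 11 and 1.

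Neuroendocrine genes, the marker list of this tumour type, held 40 regions in 13 of 46 genes, 10 higher and 30 lower (25%, 12.7 to 41.2%). Over all listed P300 regions 34.7% were higher and 65.3% lower. The interval of each list here, from neuroendocrine to long housekeeping genes, includes that 34.7%. Markers of other cell types also held regions, in 5 of 16 T cell genes, 2 of 16 hepatocyte genes and 9 of 16 skeletal muscle genes, whose 23 regions were 13 higher and 10 lower. Regions at a gene are no measure of its expression. Of 48 DNA repair genes 23 held 43 regions, 12 higher and 31 lower, with RAD51B at 1 higher and 5 lower. Of 25 dynein and kinesin genes 18 held 55 regions, 24 higher and 31 lower. Of 22 RNA-binding splicing regulator genes 12 held 53 regions, 21 higher and 32 lower. Extracellular matrix genes had 28 higher and 69 lower, and long housekeeping genes 26 higher and 56 lower. The 4 casein kinase 2 genes held none. With only regions of at least 12 reads, the shares higher were 39.9% for synapse, 28.0% for neuroendocrine, 32.4% for fragile site and 11.8% for coactivator genes, beside 40.5% for all gene body regions.

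**Figure D4:**
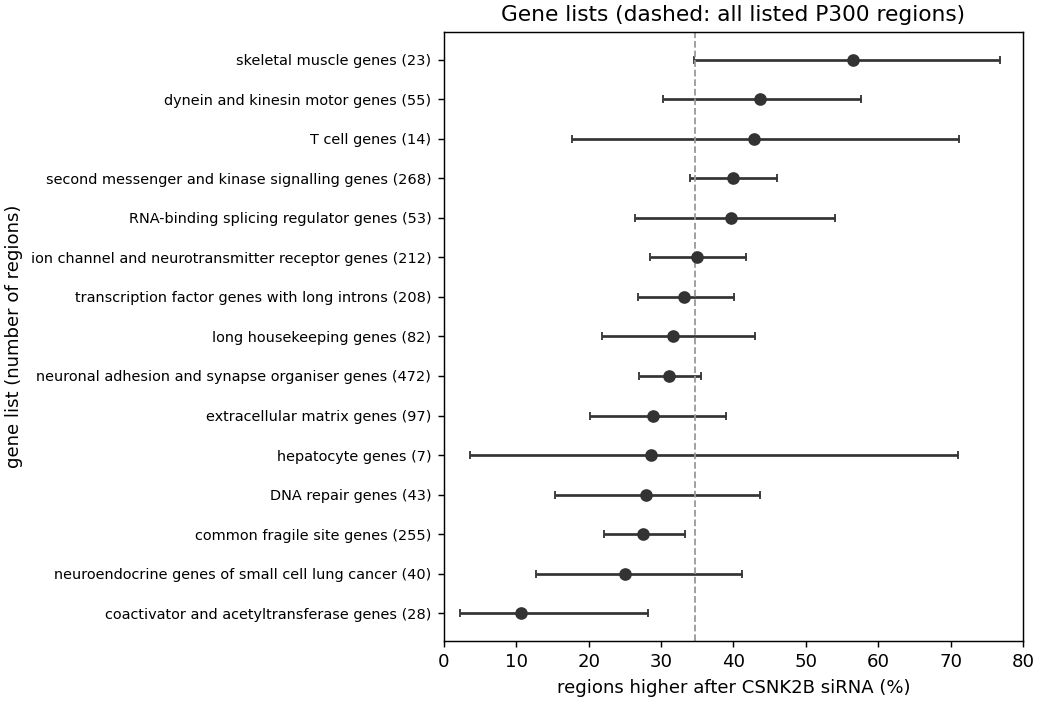
Share of P300 regions higher after CSNK2B siRNA for the gene lists, with exact 95% intervals for counting error and the share over all listed P300 regions dashed. Coactivator genes lie lowest at 10.7%, and most intervals span the 34.7% of all listed regions.

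Position along the gene made little difference. For 6506 regions in genes of known strand, the 5 equal parts of the gene from start to end held 18.1, 21.0, 21.3, 21.3 and 18.2% of regions. The first and last parts lose the 3000 bp left out at each gene end, which was not adjusted for. The other 1544 regions had no strand here, among them all 486 on chromosome 8. The share higher in the 5 parts was 33.0, 36.7, 34.2, 33.5 and 36.1%. By distance from the nearest gene end, 37.4% (35.3 to 39.6%) of the 2003 regions at 10 to 30 kb were higher, and 32.4% of the 586 regions beyond 300 kb. Median distance was 44.7 kb for regions higher after CSNK2B siRNA and 49.7 kb for regions lower.

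The share higher spanned a wider range over chromosomes than over length classes or positions. On chromosome 13, 23 of 146 regions were higher after CSNK2B siRNA (15.8%, 10.3 to 22.7%), and on chromosomes 4 and X the shares were 22.3% (17.7 to 27.4%) and 25.1% (19.0 to 32.2%). On chromosome 17 the share was 42.7% (37.0 to 48.5%) and on chromosome 19 41.8% (31.9 to 52.2%). Regions between genes also had low shares on 13 (24.3%), 4 (23.4%) and X (23.2%), and high shares on 17 (41.4%) and 19 (49.6%). On chromosome 13 the share between genes lay above the interval inside genes. On chromosome 6 the share was 30.3% inside genes (25.1 to 35.9%) and 22.1% between genes (18.0 to 26.7%). Over the 22 autosomes the shares inside and between genes had a Pearson r of 0.82 and a Spearman rho of 0.79, as a description of chromosomes that share both libraries. The share inside genes also went with the median reads per region (r 0.71, rho 0.76) and with protein-coding genes per megabase (r 0.56, rho 0.63). In gene bodies, higher regions had a median total of 13 reads and lower regions 11. A chromosome's median reads can therefore move with its share higher, so the relation with reads is no separate measure of depth. Median reads were 10 on chromosomes 4 and X, 11 on chromosome 13 and 14 on chromosome 17. They were also 11 on chromosome 11, where 37.8% were higher. The part of read depth and gene density in the chromosome shares was not tested. Without chromosomes 4, 13 and X the share over 7424 regions was 35.4%, and in genes over 1000 kb it was 31.3% (28.0 to 34.8%).

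**Figure D5:**
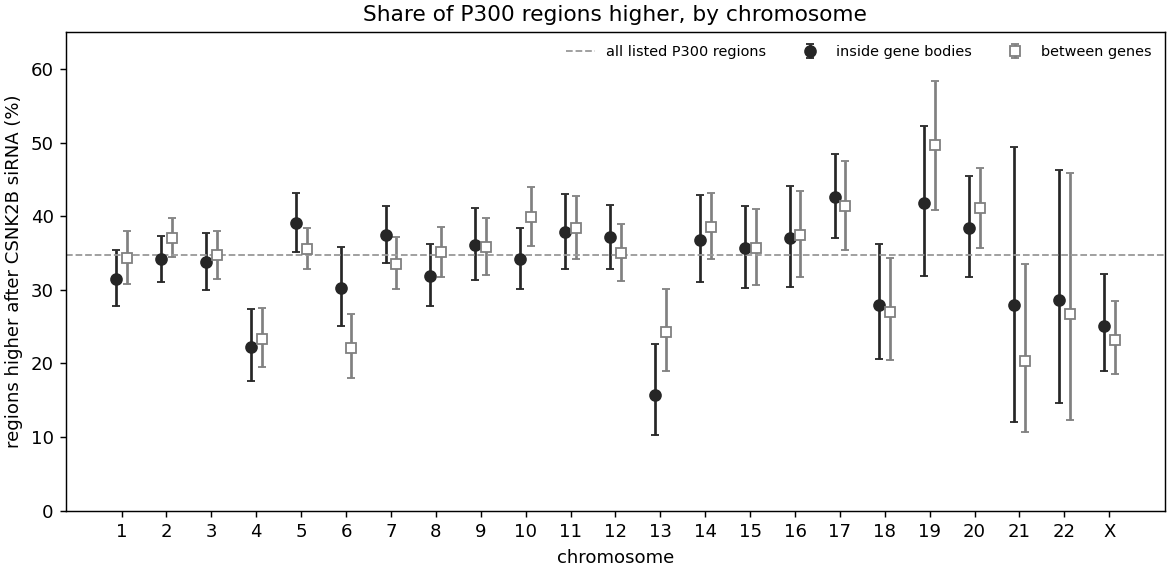
Share of P300 regions higher after CSNK2B siRNA on each chromosome, inside gene bodies (filled circles) and between genes (open squares), with exact 95% intervals for counting error and the share over all listed P300 regions dashed. Chromosomes 4, 13 and X lie low in both places, and 17 and 19 lie high. Chromosome 6 also lies low between genes, at 22.1%, and has 30.3% inside genes.

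Few of these regions were also listed for RBBP4, and where they were, the directions were the same about as often as opposite. An RBBP4 region overlapped 110 gene body regions by at least 1 bp (1.37%, 1.12 to 1.64%), against 94 of the 1105 P300 regions at gene ends (8.51%) and 113 of those between genes (0.996%). At these 110, RBBP4 was higher after CSNK2B siRNA at 71 (64.5%), where 68.8% of all listed RBBP4 regions were higher. Both proteins were higher at 31 and both lower at 26. P300 was higher and RBBP4 lower at 13, and P300 lower and RBBP4 higher at 40, so 57 of 110 had the same direction (51.8%, 42.1 to 61.4%). Since P300 was mostly lower and RBBP4 mostly higher, unrelated directions would differ more often than agree, at a rate not computed here. RBBP4 was higher at 70.5% of regions where P300 was higher (54.8 to 83.2%) and at 60.6% where P300 was lower (47.8 to 72.4%). The C4orf36 region was higher for both, with 16 RBBP4 reads after CSNK2B siRNA and 4 after non-targeting siRNA beside its 27 and 5 P300 reads. ABCC9, a potassium channel regulator gene, had 9 P300 reads after CSNK2B siRNA and 1 after non-targeting siRNA, and 126 and 14 RBBP4 reads in the same arms. AGTPBP1, a tubulin deglutamylase gene, went opposite ways, with 4 P300 reads after CSNK2B siRNA and 13 after non-targeting siRNA, and 82 RBBP4 reads after CSNK2B siRNA and 6 after non-targeting siRNA. DYNC1I1, a dynein intermediate chain gene, did likewise, with 4 P300 reads after CSNK2B siRNA and 14 after non-targeting siRNA, and 88 RBBP4 reads after CSNK2B siRNA and 10 after non-targeting siRNA. The antibodies carried separate batch labels, so antibody and batch cannot be told apart in this comparison.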

How the data were processed

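P300 and RBBP4 ChIP libraries of the knockdown and control arms were analysed from 1 deposited table of regions per antibody. The submitters' processing notes name, with no role for each, the build GRCh38 and the tools Bowtie2 2.4.5, Trim Galore 0.6.7, FastQC, DiffBind 3.4.11, ChIPseeker 1.28.3 and MACS2 2.2.7.1. RPKM per library, the log2 fold change, the mean log2 CPM and the p-value with its adjusted value were computed by the authors, per the file headers. All deposited p-values lay below 0.05, so regions without a difference are not listed. No column of another sample was present, and arms were taken from column names.

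RPKM times region width, divided by the value of 1 read, came within 0.01 of a whole number of reads for 8011 of the 8050 regions, and the other 39 took the reads of regions with the same log2 fold change and log2 CPM. The scaling totals, 946392 reads after CSNK2B siRNA and 1092789 after non-targeting siRNA, were inferred from the RPKM values and not checked. Fold ratios used reads scaled to these totals. The authors' log2 fold change was scaled otherwise, and the log2 ratio of RPKM lay 0.41 above it at the median of 2044 regions with at least 3 reads in both libraries. Counts of 2-fold and 4-fold regions used log2 of RPKM plus 1, which understates ratios of low regions. Binomial and Poisson intervals were exact at 95%. Python 3.11.15, pandas 2.3.3, numpy 2.4.6 and scipy 1.17.1 were used, and read recovery was tested on simulated data.

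With 1 library per arm there was no test, no replicate and no pairing. No genome was used, so the planned base and motif content of the regions was limited to RefSeq start windows, and coordinates are those of the tables. A region in several genes took the longest gene's name. Genes were named by rule: those of the regions with the largest authors' fold change at or above the median level, with most reads, with most regions, the longest, those with most regions in both directions, and up to 4 per list. One gene is not reported here and was left out of the gene lists. Exceptions are marked, and the start windows and microRNA, the coactivator genes beyond that number and the examples of RBBP4 overlap were chosen after their values were seen. The regions and all gene lists were chosen with earlier results of these data known. Regions on chromosome 8 are given without sequence.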

Additional observations from a re-analysis of the deposited data

How the results depend on the processing

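Of 101 recomputed values, 65 stayed within 1.5 times a count or within the interval of a share or ratio. Lower P300 regions stayed more numerous than higher ones throughout. Pseudocounts of 0.1 and 5 and the 10000 bp limit moved no main value that far. Whole containment could move none, because all 8050 regions lay wholly inside a span, and its unchanged values are counted among the 65. A minimum of 12 reads left 1747 regions at least 2-fold higher after CSNK2B siRNA and 2501 lower, a minimum of 20 reads left 180 and 300, and an authors' p below 0.01 left 786 and 1086. At 4-fold or more 2725 were lower. The share higher was above its main value with 12 reads and with p below 0.01, though not with 20 reads, where it was 33.1% in gene bodies (180 of 543). In gene bodies it was 40.5% with 12 reads and 42.0% with p below 0.01, between genes to 41.1 and 40.1%, and at gene ends to 45.6 and 42.5%. By gene length, from the shortest class to the longest, the share was 43.7, 39.3, 41.9, 40.3, 40.3 and 37.2% with 12 reads, and 43.7, 41.7, 43.7, 41.0, 41.8 and 40.5% with p below 0.01. Without chromosomes 4, 13 and X, chosen after seeing the data, the share was 35.4% in gene bodies and 35.8% between genes. A 1000 bp limit gave 41.2% at gene ends. The density ratio of the longest to the shortest class, an alternative added after seeing the data, was 1.58 with 12 reads and 1.53 for higher regions alone. Genes with both directions numbered 539 with 12 reads and 177 with p below 0.01. The median end distance of lower regions was 52.3 kb with p below 0.01. RBBP4 overlaps numbered 71 with 12 reads, 22 with p below 0.01, and 66 with an RBBP4 adjusted p below 0.05. The share with the same direction, 51.8% in the main setting, was 54.9, 54.5 and 47.0% in these settings. It was 53.0% where at least 50% of the P300 region was overlapped. The cause of these shifts was not tested, beyond the fewer regions each limit leaves. No paired analysis was possible because each arm had 1 library per antibody. Depth limits every ratio here, since the median region held 12 reads over both libraries.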
